A study of Glycine max with 4 samples.

Results

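Chromosome 10 of soybean (Glycine max) carried 612 of the 11436 regions of open chromatin that were listed for the embryo at early maturation. The regions were chosen by the chromosome named for each in the list. Chromosome 10, and the features of it described here, were selected on the peak positions themselves, so the positions and widths are given as descriptions without tests. The embryos came from the cultivar Williams 82, were taken from seeds of 6 to 7 mm, and none of the samples was treated. There were 2 biological replicates, each with 1 single-end and 1 paired-end run, and the authors analysed the paired-end runs. Each reaction used 50000 nuclei from dissected embryos, and the labels name no separation of cell types.

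Open chromatin was mapped with ATAC-seq, in which the Tn5 transposase cuts DNA that is not wrapped in nucleosomes and joins sequencing adapters to it. In plants such open regions are typically promoters and distant regulatory elements, where transcription factors bind. Soybean chromosomes have gene-rich arms and a long middle around the centromere that is rich in repeats and seldom recombines. At early maturation the cotyledons of the embryo begin to store protein and oil.

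The series had 1 peak list, which gave positions and no heights, read counts or replicate values. Depth was unknown, no peak had a replicate error, and no test over samples was possible. Comparisons with the other 19 chromosomes are therefore ranks and ranges within a single list. Positions are counted from 1 on the authors' build, whose name the sources used here do not give. No peak was assigned to a gene, because no annotation shown to be of that build was used. Intervals on shares are 95% exact binomial intervals that cover counting error only and treat peaks as independent. Whether reads could be placed uniquely was not tested for any stretch.

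The first peak of chromosome 10 ran from 34627 to 35168 and the last from 51566501 to 51566857. The end of the last peak was taken as the span of the chromosome, 51.6 Mb. Over this span there were 11.9 peaks per Mb, which ranked 8 of 20 chromosomes, where the others ran from 9.57 to 13.8 with a median of 11.3. By number of peaks chromosome 10 ranked 3, after chromosome 18 with 656 and chromosome 6 with 615. By covered length it ranked 1, since its peaks together covered 373 kb, against 372 kb on chromosome 18 and a median of 275 kb on the other 19. The gap to chromosome 18 was small, and relative to its span chromosome 10 ranked 2, with 0.723% covered against 0.778% on chromosome 17. These ranks moved with the peaks of 18800001 to 19200000. Without these, 0.548% was covered and the density was 10.6 per Mb, which ranked 16 and 14 against the other chromosomes as listed. With the fullest 400 kb of every chromosome left out, chromosome 10 ranked 12 in covered share and 13 in density.

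Open chromatin was dense in both arms and thin between them, with 1 exception before the midpoint of the chromosome. In successive windows of 5 Mb from the start, chromosome 10 held 110, 64, 35, 77, 18, 12, 15, 62, 79 and 119 peaks, and 21 more lay beyond 50 Mb. The number thus declined over the first 15 Mb, rose in the window of 15 to 20 Mb, stayed low up to 35 Mb and climbed again toward the end. The first 10 Mb held 17.4 peaks per Mb and the stretch beyond 37 Mb held 18.5. Between 10 and 37 Mb there were 6.22 peaks per Mb, and 3.68 once the peaks of 18800001 to 19200000 were left out.

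**Figure D1:**
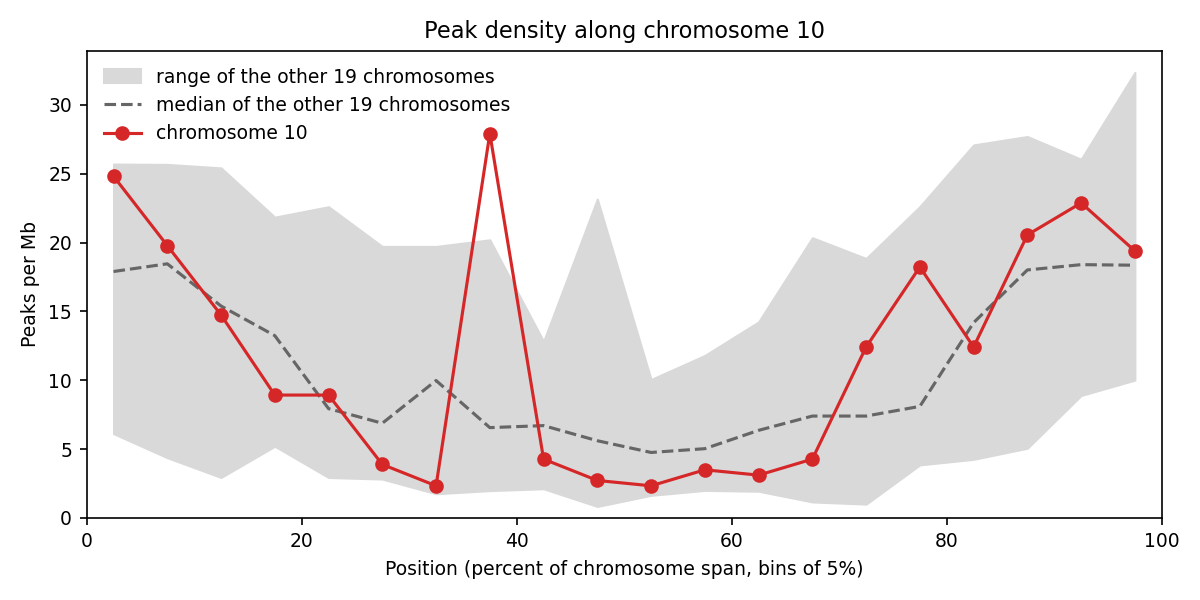
Peaks per Mb of chromosome 10 (red) in 20 bins of 5% of its span, with the median (dashed) and the range (grey) of the other 19 chromosomes in the same bins. Chromosome 10 exceeded all others in the bin from 35 to 40% of the span, at 27.9 peaks per Mb, and ranked 19 and 17 of 20 in the bins before and after it.

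The arms of chromosome 10 lay within the range of the other chromosomes. With the outer parts taken as the first and last 25% of the span, the start held 199 peaks (15.4 per Mb), the inner part 172 (6.67 per Mb) and the end 241 (18.7 per Mb). The end was 1.21 times as dense as the start. In density the start ranked 11, the inner part 12 and the end 5 of 20 chromosomes. The first 5% of the span held 24.8 peaks per Mb, against a median of 17.9 and a highest value of 25.7 on the other chromosomes. From 15 to 20% of the span the density had dropped to 8.92, below the median of 13.2 there. On the other arm, the bins from 70 to 75% and from 75 to 80% held 12.4 and 18.2 peaks per Mb, where the medians of the others were 7.39 and 8.10. Between 80 and 85% the order was the reverse, with 12.4 peaks per Mb against a median of 14.2.

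The outer parts were 2.56 times as dense as the inner part, which ranked 5 of 20, behind chromosome 4 with 3.72. This ratio moved with the peaks of 18800001 to 19200000. Those 70 peaks made up 40.7% of all peaks of the inner part. Without them the inner part held 102 peaks, or 4.02 per Mb, and the outer parts were 4.25 times as dense. When every chromosome was considered without its own fullest window of 400 kb, chromosome 10 had the highest ratio of the 20, and the median of the others was 2.03. That window was inner on chromosome 10 and outer on most others, so leaving it out shifted their ratios in opposite directions. Chromosome 4, for example, went from 3.72 to 3.62. The 4.25 of chromosome 10 was also above the 3.72 of chromosome 4 as listed.

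Counted by covered length the contrast was smaller. Peaks covered 8.17 kb per Mb of the outer parts and 6.28 kb per Mb of the inner part, a ratio of 1.30. That ranked 18 of 20, with 1.04 on chromosome 17 as the lowest and a median of 1.97 on the other chromosomes. Chromosome 10 therefore ranked high for the contrast in peak number and low for the contrast in open length. Without the 70 peaks the inner part had 2.74 kb per Mb covered and the ratio was 2.98. With the fullest 400 kb of every chromosome left out, it ranked 3 of 20, and the median of the others was 1.89. Here too the window left out was inner on chromosome 10 and outer on most others.

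**Figure D2:**
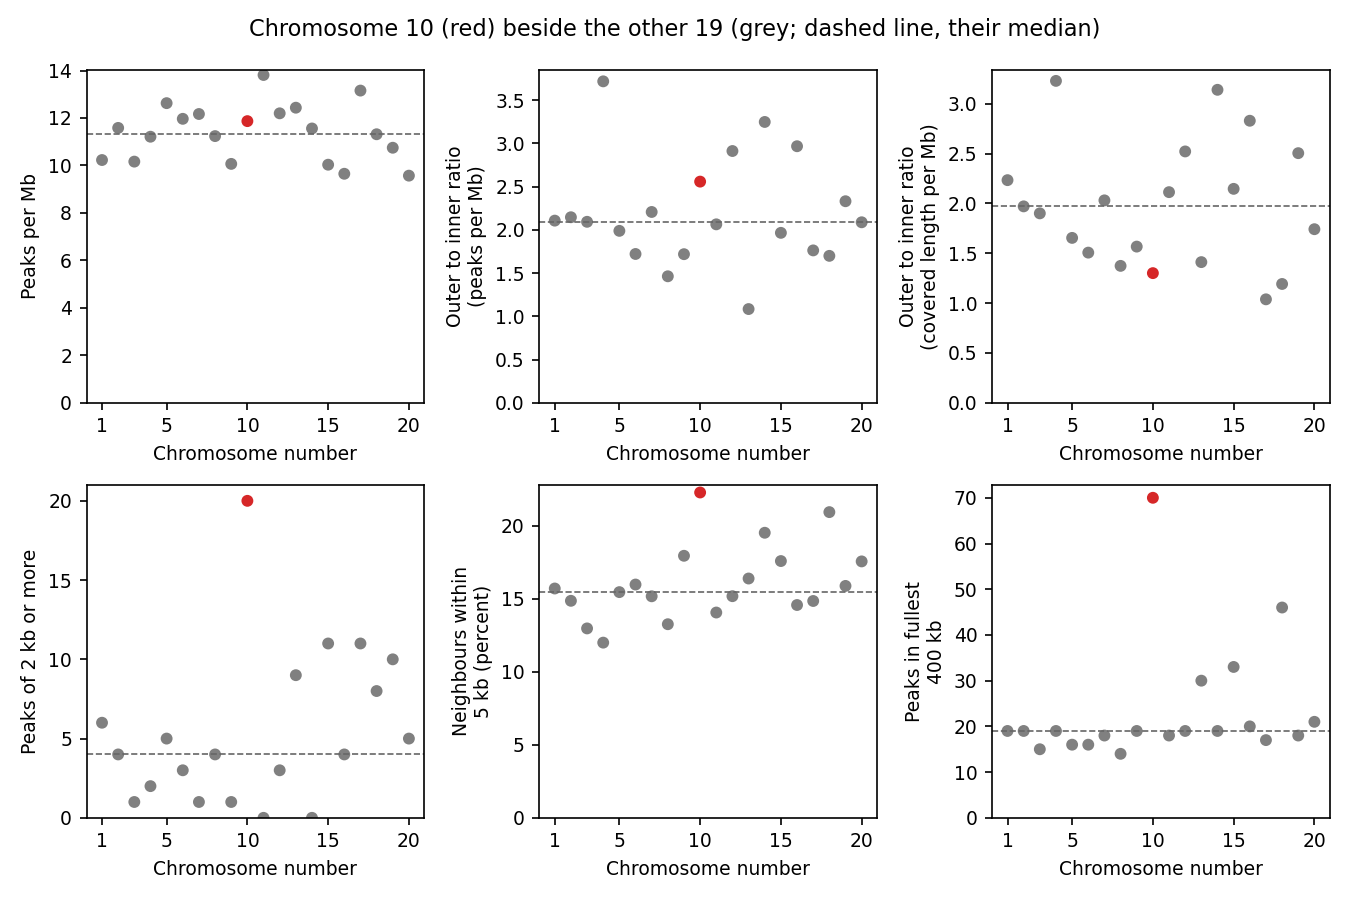
Each point is 1 chromosome, with chromosome 10 in red and the median of the other 19 dashed, for peaks per Mb, the outer to inner ratio of peaks and of covered length, wide peaks, close neighbours (percent) and the fullest 400 kb. Chromosome 10 ranked 8 in density and 1 in wide peaks (20), close neighbours (22.3%) and peaks in the fullest 400 kb (70).

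The peak-rich stretch lay at about 37% of the span. Its first peak began at 18880164 (36.6% of the span) and its last ended at 19109764 (37.1%), so the 70 peaks occupied 230 kb. They were 11.4% of the peaks of chromosome 10 and 24.8% of its covered length, on 0.445% of its span. Over the full 400 kb the density was 175 peaks per Mb, 10.3 times that of the outer parts and 43.6 times that of the rest of the inner part. In windows of 1 Mb the stretch accounted for 31 of the 32 peaks between 18 and 19 Mb and for 39 of the 39 between 19 and 20 Mb.

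Its surroundings were nearly empty. In the 1 Mb before 18800001 there was 1 peak, and in the 1 Mb after 19200000 there were 0. Within 2 Mb there were 4 before and 2 after. The nearest peak before the stretch ran from 18439520 to 18439640, 121 bp wide and 441 kb away. The nearest after it ran from 20277851 to 20278318, 468 bp wide and 1.17 Mb away. From 14 Mb to the stretch there were 8 peaks (1.67 per Mb), and from the stretch to 37 Mb there were 56 (3.15 per Mb).

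The 70 peaks fell into 3 groups when gaps of up to 10 kb were joined. A single peak at 18880164 to 18880653 stood apart by 10635 bp. Next came 42 peaks from 18891289 to 19034537, which covered 43.8% of 143 kb, the median peak being 802.5 bp wide. After the longest gap of the stretch, 12637 bp from 19034538 to 19047174, another 27 peaks ran to 19109764, with 46.5% of 62.6 kb covered and widths around a median of 695 bp. The pair of larger groups thus differed in length more than in how fully they were covered.

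Inside the stretch, peaks were close together. Of the 69 gaps between neighbours, 35 were under 1 kb, 51 under 2 kb and 61 under 5 kb. The median gap was 989 bp and the smallest 304 bp, which was also the smallest gap anywhere on chromosome 10. The median peak width was 704.5 bp, below the median gap. Widths ran from 31 bp, at 18935785 to 18935815, to 7669 bp, at 18993291 to 19000959.

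Wide peaks of at least 2 kb accounted for 15 of the 70 peaks and for 62.3% of their 92.4 kb. They were spread over both large groups. Slices of 25 kb, counted from the first peak, held 2, 1, 1, 2, 4, 0, 1, 1, 3 and 0 of them. The fifth slice, from 100 to 125 kb, had the most, with 18.4 kb covered by 6 peaks and a median width of 2675.5 bp. The slice after it, from 125 to 150 kb, held 9 peaks that covered 5.43 kb with a median of 363 bp. Among pieces of up to 30 kb that began at a peak, the one with the greatest covered length ran from 18975467 to 19005144. There 7 peaks, 5 of them wide, covered 79.6% of 29.7 kb.

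**Figure D3:**
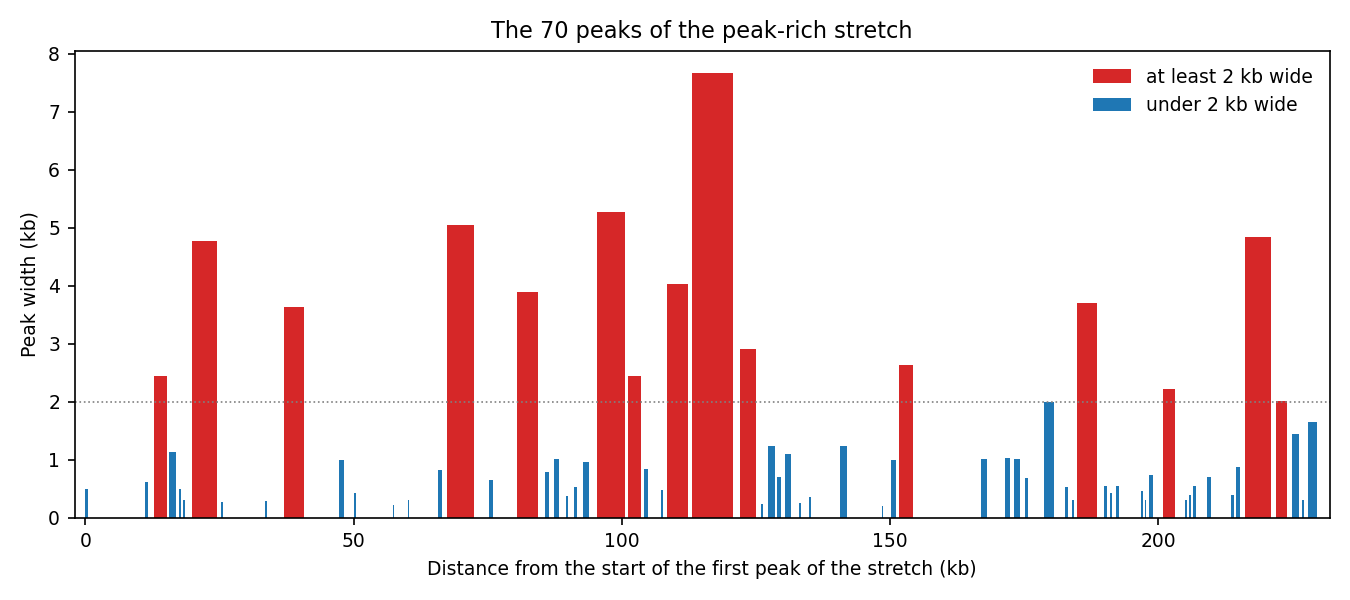
Every peak of the peak-rich stretch as a bar, placed and drawn to scale by its distance from the start of the first peak (kb), with its width (kb) as the height. Bars in red are at least 2 kb wide, and the tallest is the peak of 7.67 kb (7669 bp).

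The fullest 400 kb of the other chromosomes held 14 to 46 peaks, with a median of 19. Closest to chromosome 10 were chromosome 18, with 46 peaks from 39090001 to 39490000, and chromosome 15, with 33 from 45150001 to 45550000. Chromosome 13 followed with 30 from 38460001 to 38860000. Peaks covered 92.4 kb in the fullest window of chromosome 10, 52.3 kb on chromosome 18, 35.0 kb on chromosome 15 and 35.2 kb on chromosome 13. The median width was not highest on chromosome 10, since it was 817 bp on chromosome 18 and 903.5 bp on chromosome 13. Wide peaks numbered 5 on chromosome 18, 5 on chromosome 15 and 4 on chromosome 13, against 15.

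The surroundings differed as well. The 2 Mb that flank the fullest window, 1 Mb on each side, held 1 peak on chromosome 10, 13 on chromosome 18, 13 on chromosome 15 and 37 on chromosome 13. Over the other 19 chromosomes the flanks held 7 to 48 peaks, with a median of 38, and the 7 were on chromosome 9. By location the window of chromosome 10, at 36.7% of the span, was further from an end than those of chromosomes 18, 15 and 13. Theirs lay at 67.8%, 87.7% and 84.5%. The window of chromosome 9 was further from an end still, at 60.9% of its span. These windows were picked for their number of peaks, so the counts rank them and test nothing.

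Wide peaks were more numerous on chromosome 10 than on any other chromosome. It had 20 of at least 2 kb, followed by 11 on chromosomes 15 and 17, with a median of 4 on the other 19. That was 3.27% of its peaks (interval 2.01 to 5.002), against 88 of 10107, or 0.871%, on the other chromosomes together (interval 0.699 to 1.07). These intervals do not test a difference between chromosomes. Chromosome 10 was selected on its peaks, and its wide peaks were clustered, with 15 of the 20 in the stretch. The excess sat in the stretch, since the 542 peaks outside it included 5 wide ones, or 0.923%. With the fullest 400 kb of every chromosome left out, these 5 compared with a median of 4 on the others. They ranked 4 of 20, tied with chromosomes 5, 13, 19 and 20. The 20 wide peaks covered 82.1 kb, which was 22.03% of all open length on chromosome 10. Near the limit, peaks of 2017 and 2018 bp were just counted as wide, and peaks of 1992 and 1651 bp were just not.

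All but 1 of the 20 wide peaks lay in the inner part. The widest was outside the stretch, from 17196358 to 17205346, with 8989 bp, and ranked 5 among all chromosomal peaks of the list. It opened a run of 3 wide peaks, continued by 3344 bp at 17214724 to 17218067 and 5019 bp at 17221461 to 17226479. This run covered 57.6% of 30.1 kb. No other peak lay within 509 kb before it or within 1.21 Mb after it. Like the large stretch, it was a patch of wide peaks between long empty stretches, with far fewer peaks.

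There were 2 more wide peaks outside the stretch, neither next to another wide one. A peak of 5238 bp ran from 34522321 to 34527558, at 67.0% of the span, and was followed by 0.513 Mb without a peak. A peak of 2017 bp ran from 47753525 to 47755541, at 92.6% of the span, and was the only wide one in an outer part. It lay 5976 bp after a narrower peak of 1523 bp, from 47746026 to 47747548, in a group of 3 joined with gaps of up to 10 kb. In the stretch, the widest after 7669 bp were 5270 bp at 18975467 to 18980736, 5047 bp at 18947598 to 18952644, 4843 bp at 19096400 to 19101242 and 4770 bp at 18900013 to 18904782. Next came 4036 bp at 18988559 to 18992594 and 3899 bp at 18960576 to 18964474, which completed the 10 widest of the chromosome together with those already given. Peaks of 3697 bp at 19065071 to 19068767 and of 3629 bp at 18917277 to 18920905 followed. The other 6 wide peaks of the stretch had 2913, 2639, 2441, 2438, 2217 and 2018 bp, and began at 19002232, 19031899, 18892897, 18981297, 19081159 and 19102107.

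A further 27 peaks were 1 to 2 kb wide. The stretch held 11 of them, the start 4, the end 9 and the rest of the inner part 3. Outside the stretch, peaks of at least 1 kb had shares near those of the other chromosomes as listed. Those chromosomes kept their fullest 400 kb here, and this share was not calculated without them. Such peaks were 3.18% of the outer peaks (interval 1.75 to 5.28), against 4.21% on the other chromosomes (interval 3.75 to 4.72). In the rest of the inner part they were 6.86% (interval 2.80 to 13.6), against 6.44% (interval 5.63 to 7.33). In the stretch they were 37.1% (interval 25.9 to 49.5).

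The typical peak of chromosome 10 was not wide. The median over all 612 was 458.5 bp, which ranked 7, while the mean of 609 bp ranked 1 and reflected the few very wide peaks. The narrowest peak had 17 bp, from 1182870 to 1182886, and 7 peaks were under 100 bp. The median was 413 bp at the start and 457 bp at the end. In the inner part it was 502 bp, the highest of the 20 chromosomes, and 460.5 bp without the stretch. The inner median exceeded the outer one of 428 bp by 74 bp, or by 32.5 bp without the stretch. The latter ranked 8 of 20 when the fullest 400 kb were left out everywhere, where the median of the others was 21 bp.

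The most frequent width of the list was 0.306 kb, to the base, and on chromosome 10 it was found in 105 peaks, or 17.2% (interval 14.3 to 20.4). The share was 20.6% at the start (interval 15.2 to 26.9), 18.3% at the end (interval 13.6 to 23.7) and 14.7% in the inner part without the stretch (interval 8.47 to 23.1). In the stretch 5 of 70 peaks had it, or 7.14% (interval 2.36 to 15.9). The outer and inner parts of the other chromosomes had 17.4% and 13.2%. Narrower peaks made up 14.6% at the start, 10.8% at the end and 14.3% in the stretch, with intervals that overlapped.

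**Figure D4:**
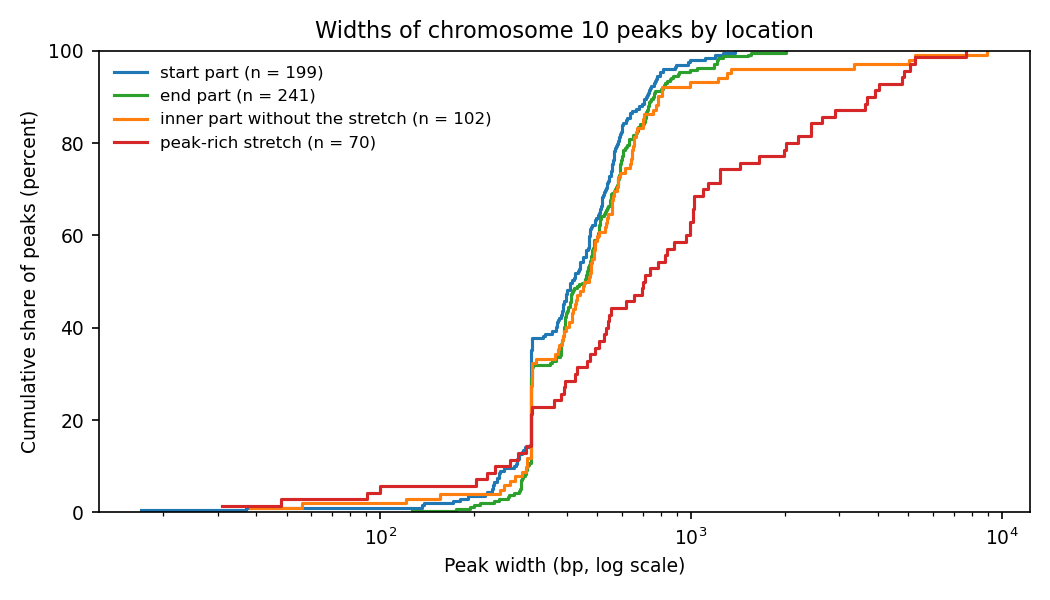
Cumulative share of peaks (percent) by width (bp, log scale) for the start part, the end part, the inner part without the stretch and the stretch. The curves of the 3 other parts lie close together, with medians of 413, 457 and 460.5 bp. That of the stretch lies to their right at its median of 704.5 bp, but not among the narrowest peaks.

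Long empty stretches were frequent. Chromosome 10 had 6 peak-free stretches over 1 Mb, as many as chromosome 19 and more than any other, with a median of 2. Chromosomes 2 and 20 had 5 each. The shortest of the 6 were just over the limit, at 1.005 and 1.011 Mb, so this rank depends on the limit. Together the 6 took up 7.37 Mb, or 14.3% of the span, which ranked 3 behind chromosomes 20 (15.6%) and 19 (14.7%). All 6 lay in the inner part. The longest was 1.74 Mb, from 14265291 to 16006794, and ranked 4 among the longest stretches of each chromosome. It covered the only complete window of 1 Mb with no peak, that of 15 to 16 Mb.

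The others followed in a series across the middle. They were 1.21 Mb from 17226480 to 18439519, 1.17 Mb from 19109765 to 20277850 and 1.01 Mb from 26212725 to 27224199. Then came 1.23 Mb from 27518867 to 28747579 and 1.01 Mb from 31006544 to 32011598. The first of these followed directly on the run of 3 wide peaks, and the next on the large stretch. With 0.5 Mb as the limit there were 20 such stretches, which took up 17.3 Mb or 33.6% of the span, and 18 of them were centred in the inner part. The exceptions in the outer parts were 0.717 Mb from 10467016 to 11184093 and 0.610 Mb from 7957995 to 8567772, both in the start part. The longest in the end part was 0.414 Mb, from 51036853 to 51451218, close to the last peak.

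Single peaks broke the empty middle. Exactly 1 peak was found in each of the windows of 14 to 15, 25 to 26, 26 to 27, 29 to 30 and 31 to 32 Mb. The sparsest 10 Mb, from 24.5 to 34.5 Mb, held 26 peaks, and the fullest, from 40.3 to 50.3 Mb, held 203. Their ratio of 7.81 was the highest of the 20 chromosomes, where the others ran from 3.22 to 7.55. The fullest 10 Mb did not include the peak-rich stretch. Besides the windows of 18 to 20 Mb, the fullest single megabases were those of 1 to 2 Mb with 34 peaks, 49 to 50 Mb with 29 and 47 to 48 Mb with 28.

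**Figure D5:**
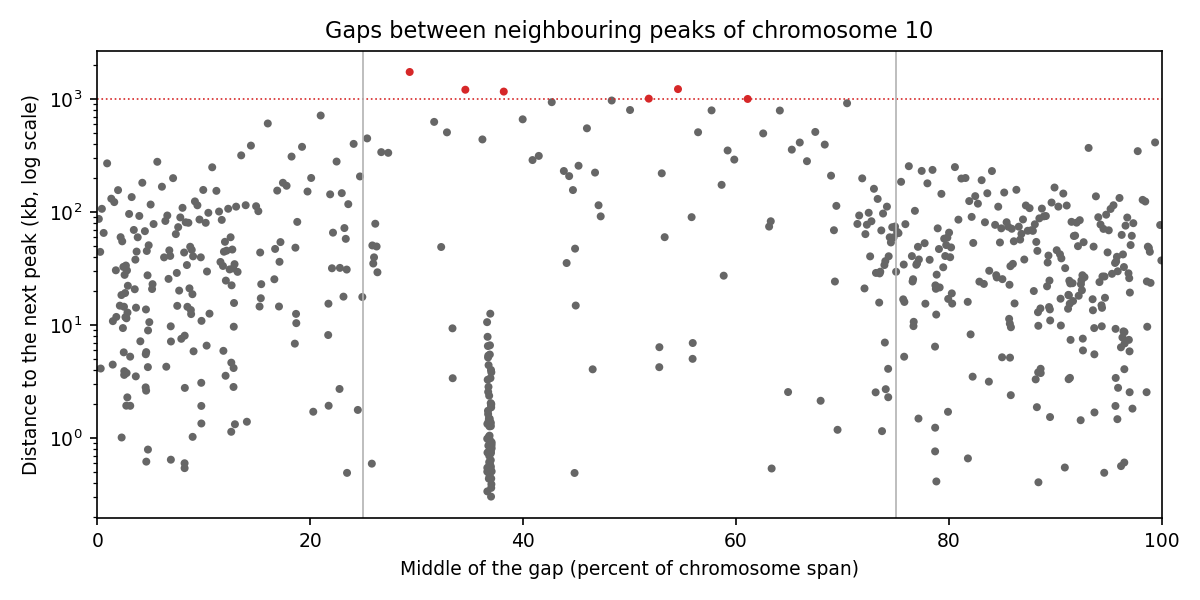
Distance from each peak of chromosome 10 to the next (kb, log scale) against the middle of the gap in percent of the span, with grey lines at 25% and 75%. The 6 gaps over 1 Mb (red) all lie between the grey lines, and the column of points at 37% is the peak-rich stretch, with gaps down to 304 bp.

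Spacing differed between the arms, the middle and the stretch. The median distance from a peak to its nearest neighbour was 12.5 kb at the start, 16.1 kb at the end, 35.1 kb in the inner part without the stretch and 0.745 kb in the stretch. Peaks over 100 kb from any other numbered 41. The inner part held 23 of these, which was 22.5% of its peaks outside the stretch, while the start held 13 and the end 5. The start had fewer peaks than the end, yet its peaks had closer neighbours and were more often isolated.

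Close neighbours made up a larger share on chromosome 10 than on any other. Of its 611 neighbouring pairs, 136 had midpoints within 5 kb, or 22.3% (interval 19.02 to 25.8), while the others ran from 12.0% to 20.9%. The stretch contributed 56 of the 136. Without it the share was 14.8%. With the fullest 400 kb of every chromosome left out, this ranked 12 of 20, and the median of the others was 14.9%. The median gap between neighbours was 29.0 kb, the shortest of the 20 chromosomes, where the others ran from 34.7 to 47.6 kb. With the fullest 400 kb left out everywhere it was 36.27 kb and still the shortest, next to 36.32 kb on chromosome 4 and a median of 40.3 kb on the others.

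Outside the stretch, most peaks stood alone and the rest were in small groups. Of the 542 peaks there, 323 (59.6%) stayed single when gaps of up to 10 kb were joined, and 219 (40.4%) went into 91 groups. Of these groups 67 were pairs, 13 had 3 peaks, 9 had 4 and 2 had 5. The groups of 5 ran from 4231872 to 4245935 in the start part and from 49751473 to 49774298 in the end part, and covered 14.6% and 11.1% of their length. The most fully covered group of 4 ran from 40580635 to 40591773, with 24.0% covered. No group outside the stretch had more than 5 peaks, and none of these small groups of 4 or 5 lay in the inner part.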

How the data were processed

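Nuclei from soybean embryos were treated with Tn5, and 10 PCR cycles made the libraries, per the labels' protocols. Of tools, the submitters' processing notes name bedtools, HOMER, SAMtools and Bowtie2 2.3.4.1, with no roles. The sources used here give neither the genome build nor the peak-calling settings, filters or handling of the transposase offset. What the authors deposited was 1 list with 3 columns, the sequence, start (from 0) and end of each peak in bp. Its name calls it an intersection, and the sources used here do not say how replicates were combined. Regions open in 1 replicate alone may thus be missing, and edges may differ from those in either replicate.

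Peaks were assigned by midpoint. The first and last 25% of the span to the last peak were the outer parts. Windows of 10 Mb moved by 100 kb and those of 400 kb by 10 kb. The stretch was 18800001 to 19200000. The most frequent width was 306 bp. Named regions were the 10 widest peaks and all of at least 2 kb, peak-free stretches over 1 Mb, groups of at least 8 peaks, the fullest and sparsest windows, and the extremes within the stretch. Further positions (groups of 4 or 5 peaks, the fullest 30 kb, narrower peaks, shorter gaps) were chosen after their values were seen. Chromosome 10, its features and all settings were chosen with earlier results of these data known. Calculations used Python 3.11.15, numpy 2.4.6, pandas 2.3.3, scipy 1.17.1 and matplotlib 3.10.9. Simulated lists, denser and with narrower peaks than the real one, were used to check 3 of them. These were the outer to inner ratio of peaks, the finding of peak-free stretches over 1 Mb and of dense groups. The other calculations were not checked in this way. Alternatives covered narrow peaks, merging, the stretch, part limits and distance limits. Genes and sequences were not analysed here, for lack of a genome shown to be of the list's build.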

Additional observations from a re-analysis of the deposited data

How the results depend on the processing

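No paired analysis was possible because replicates are not told apart in the peak positions, and for the same reason leaving out each replicate was not run. Of 47 alternatives for 12 values of chromosome 10, 28 stayed close. Close means within the 95% counting interval or, for counts and values without one, within 1.5 times. For the covered-length ratio of 1.30, which had no interval, this limit also admits equal cover of both parts. Being close there does not show that the contrast held. A direction could turn only for the outer to inner ratios and the inner minus outer width, and 0 of their alternatives turned it. The covered-length ratio of 1.30 nevertheless fell to 1.08 with outer parts of 30%, 1.17 with merging and 1.25 without narrow peaks. It rose to 1.32 with outer parts of 20% and 1.48 with a middle of 10 to 37 Mb. The 6 alternatives for covered length, and the ranks with the fullest 400 kb of each chromosome left out, were added after seeing the data. Without the peaks of the stretch, density fell from 11.9 to 10.6 per Mb, the outer to inner ratio rose to 4.25 for peaks and 2.98 for covered length, and the inner minus outer width was 32.5 bp. Wide peaks then numbered 5, dense clusters 0, and 14.8% of neighbours lay within 5 kb. Merging peaks up to 1 kb apart gave 10.9 peaks per Mb, a ratio of 3.18, 35 peaks in the stretch and 13.1% close neighbours. Leaving out peaks narrower than the most frequent width gave 10.4 peaks per Mb and 8 peak-free stretches over 1 Mb. Wide peaks numbered 47 from 1 kb and 13 from 3 kb, peak-free stretches over 0.5 Mb numbered 20, and close neighbours were 8.84% within 2 kb and 30.3% within 10 kb. Windows of 5 Mb gave a fullest to sparsest ratio of 13.8, and joining gaps of up to 20 kb left 1 dense cluster. Depth was unknown, so what it limits could not be given.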
